A study of Homo sapiens with 5 samples.

Results

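Pyruvate, the end product of glycolysis, is either reduced to lactate and exported from the cell or carried into mitochondria and oxidised. The 10 genes described here encode the enzymes and carriers at that branch: the lactate dehydrogenase subunits LDHA and LDHB, the lactate carriers SLC16A1 and SLC16A3, the pyruvate dehydrogenase kinases PDK1 and PDK3, the pyruvate dehydrogenase E1 subunits PDHA1 and PDHB, and the mitochondrial pyruvate carrier subunits MPC1 and MPC2. They were taken by symbol through their Ensembl identifiers, and all 10 were found among the 65217 human gene identifiers of the deposited count table and passed the filter on low counts. They were chosen for their function, with earlier results of these data known.

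Expression was measured by RNA sequencing in REH, an established human precursor B cell leukaemia line with the ETV6-RUNX1 (TEL-AML1) fusion, to compare leukaemia cells in the central nervous system with cells in a peripheral organ. The line had been kept in 25 mM glucose at 21% oxygen before it was transplanted into NSG mice of 6 to 10 weeks, an immunodeficient NOD strain with the Prkdc scid and Il2rg tm1Wjl alleles. Cells came from the brain (leptomeninges, 3 libraries) and from the spleen (2 libraries) of such mice and were purified on a Ficoll gradient, and each library pooled the RNA of 5 mice from 1 occasion. Both groups are therefore 1 cell line in a host without mature lymphocytes, and no library stands for a single animal.

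Gene totals were 38387991 to 48656936 estimated counts in brain and 46005806 and 48764202 in spleen. Of 9 markers of precursor B cells, 8 were counted in every library and VPREB1 was at 0 in all, and their summed level was 5840 to 6088 CPM (counts scaled to the library total) in brain against 6629 and 6266 in spleen. Within that list CD79A, a B cell receptor signalling chain, fell to 0.656 of its spleen level (edgeR adjusted p = 0.0166), and RAG1, a recombinase of precursor lymphocytes, was 1.46-fold higher (edgeR adjusted p = 0.0137). Of 6 markers of other blood cells, 3 were counted in every library, and the list summed to 27.5 to 38.7 CPM in brain and to 22.4 and 17.0 in spleen, nearly all of it MPO (23.4 to 36.7 CPM in brain, 19.6 and 14.3 in spleen). All 4 markers of human brain and meninges were counted in every library, and they summed to 20.3 to 21.2 CPM in brain libraries and to 19.6 and 16.3 in spleen libraries. Of these, MBP (13.8 to 16.8 CPM in brain, 10.98 and 11.1 in spleen) and GFAP (0.487 to 0.733 CPM in brain, 0.342 and 0.179 in spleen) were higher in every brain library, RBFOX3 and COL1A1 overlapped, and none of the 4 passed the test. Mouse transcripts took 5.70%, 2.58% and 2.64% of all estimated counts in brain replicates 1 to 3, against 6.33% and 8.87% in spleen (exact two-sided permutation test, p = 0.2, where 0.1 is the smallest possible). Their part in the results below was not tested.

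Lactate dehydrogenase is a tetramer of LDHA and LDHB subunits. LDHA-rich enzyme is known for turning pyruvate into lactate, and LDHB-rich enzyme for the reverse reaction. The pyruvate dehydrogenase complex, whose E1 enzyme is built from PDHA1 and PDHB, commits pyruvate to acetyl-CoA, and PDK enzymes switch it off by phosphorylating E1. PDK1, LDHA and SLC16A3 are known targets of HIF-1, the transcription factor of low oxygen, which binds elements with an ACGTG or GCGTG core.

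The ACGTG core was searched on both strands in the 250 bases before each annotated start in the RefSeq promoter table (GRCh38.p14), which holds 9 of the 10 genes (all but SLC16A1). For PDK1 and LDHA the level in every brain library exceeded those in spleen, and for PDHB the libraries overlapped. PDK1 passed the test between sites, and LDHA and PDHB did not. The sequences of PDK1 and LDHA are shown with that of PDHB, which holds the same letters at 2 places. They run 5′ to 3′ on the strand of the gene, and capitals mark ACGTG or its reverse complement CACGT, which together read CACGTG where they overlap. The LDHA stretch is chr11:18394363-18394512 (plus strand, 200 to 51 bases before the start at 18394563), the PDK1 stretch chr2:172556065-172556089 (plus strand, the last 25 bases before the start at 172556090, downstream of the PDK1-203 start at 172556051), and the PDHB stretch chr3:58433858-58434082 (minus strand, 250 to 26 bases before the start at 58433832).
LDHA: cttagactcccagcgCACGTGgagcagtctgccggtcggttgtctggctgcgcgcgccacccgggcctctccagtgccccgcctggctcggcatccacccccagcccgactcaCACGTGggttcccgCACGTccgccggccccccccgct
PDK1: ctgcccgcCACGTccctCACGTacc
PDHB: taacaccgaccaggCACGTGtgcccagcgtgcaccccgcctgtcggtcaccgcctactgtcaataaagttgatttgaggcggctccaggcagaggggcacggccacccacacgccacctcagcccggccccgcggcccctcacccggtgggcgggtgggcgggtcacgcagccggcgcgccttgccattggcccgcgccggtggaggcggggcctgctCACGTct

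ACGTG stood at 3 separate places in the LDHA stretch and at 2 in the PDK1 stretch. Over the 34943 windows of the table, 18.5% held it at least once, 2.61% at 2 or more places and 0.349% at 3 or more. Among the 10 genes it was also present before 1 start of SLC16A3, at 2 places, and at 1 place before the start of PDK3. The windows of LDHB, MPC1, MPC2 and PDHA1 held none, nor did the second start of LDHA, the upstream start of PDK1 (172555373, where PDK1-208 begins) and the other 4 starts of SLC16A3. GCGTG stood in 32.2% of windows, and in windows of LDHA, MPC1, PDHA1, PDHB, PDK3 and SLC16A3. These are matches of letters only.

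Of the 10 genes, 1 rose and 1 fell in brain. PDK1, a kinase that inhibits pyruvate dehydrogenase, was 1.76-fold higher, and MPC1, a subunit of the mitochondrial pyruvate carrier, was at 0.699 of its spleen level. These are 1 of 10 in each direction by edgeR's quasi-likelihood test at an adjusted p under 0.05. Among the 20419 genes tested the same rule called 6.01% higher and 3.5% lower, 9.51% in all, and 1 gene in each direction is too few to set the 10 genes apart. Their median log2 fold change (brain over spleen) was -0.14, against 0.0066 over all genes tested. Brain and spleen libraries did not overlap for 5 genes, LDHA and PDK1 with brain above spleen, and SLC16A1, PDHA1 and MPC1 with brain below. The background was 23.3% of genes with every brain library above and 19.5% with every brain library below. In bulk RNA, fewer cells that express a gene and less RNA per cell cannot be told apart.

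**Figure D1:**
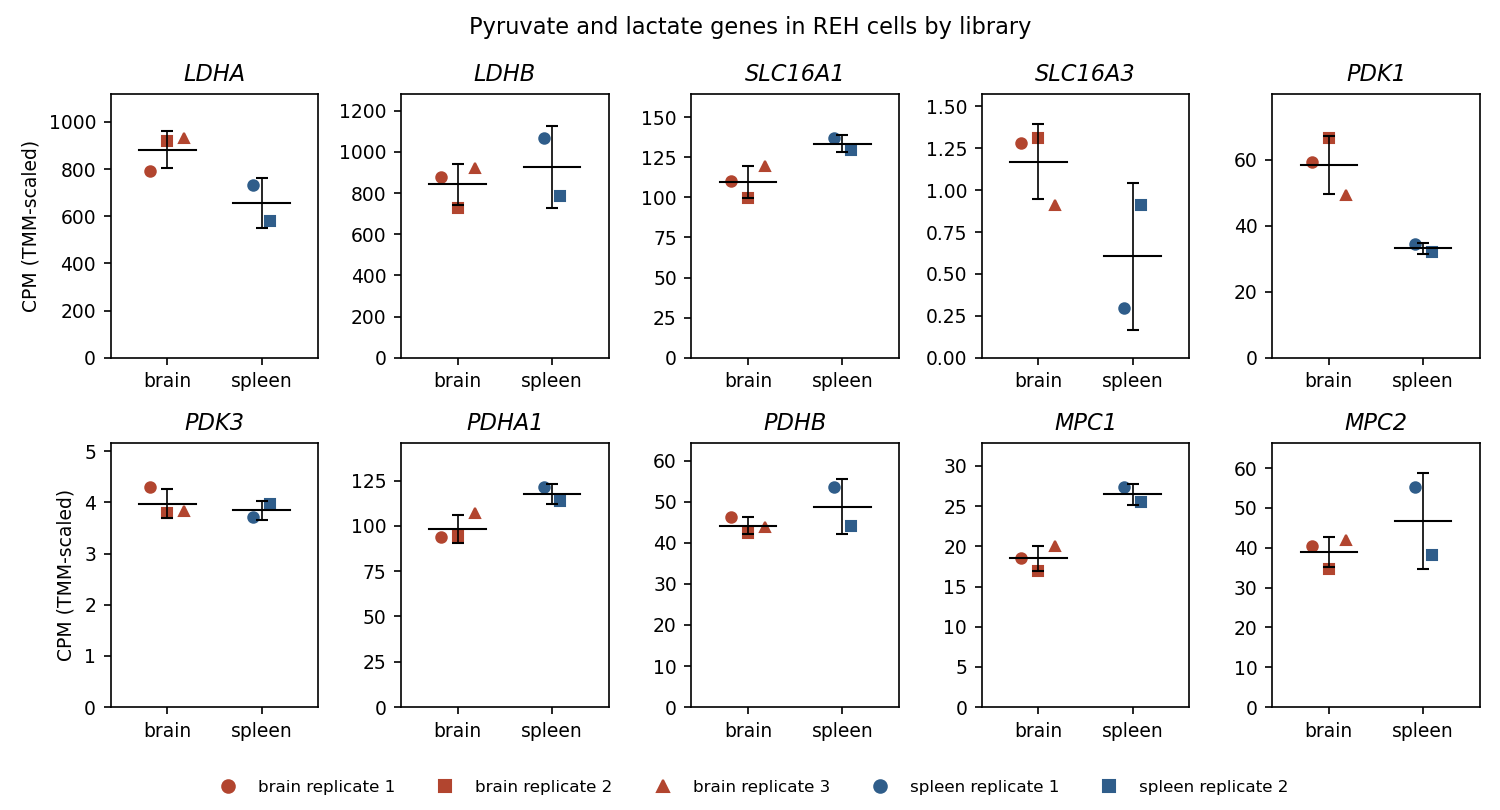
Level of each of the 10 genes in CPM (y axis, from 0, ranges differ) in the 3 brain (red, left) and 2 spleen (blue, right) libraries, with the mean as a line and SD as a bar. PDK1 and LDHA lie above spleen in every brain library, and SLC16A1, PDHA1 and MPC1 below.

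**Figure D2:**
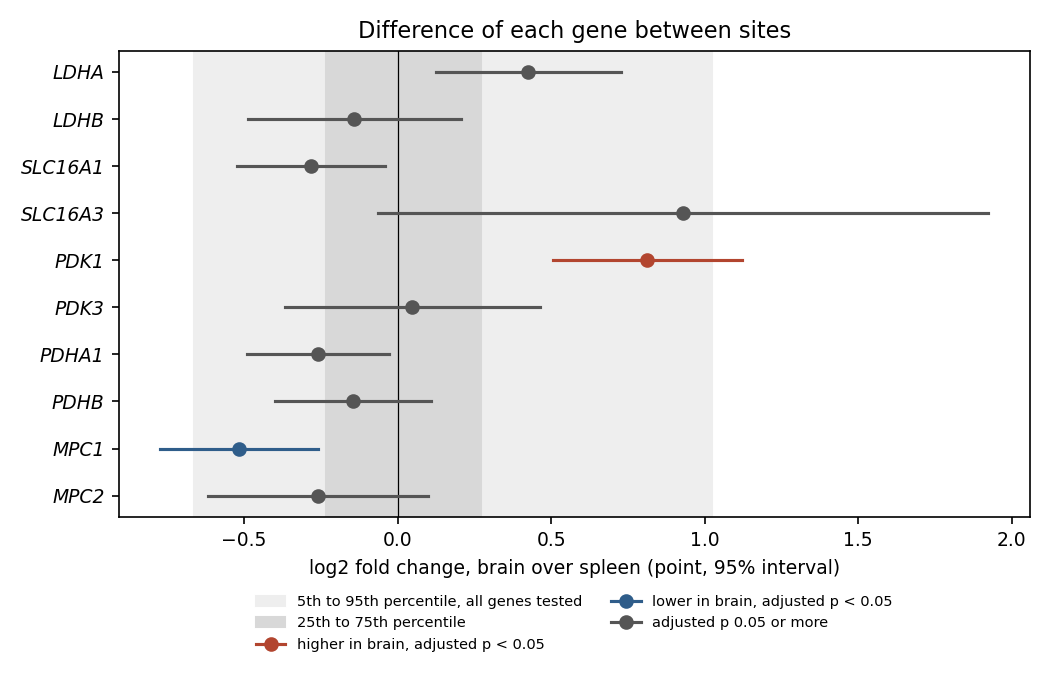
Log2 fold change, brain over spleen, of each gene with its 95% interval (edgeR, 3 brain and 2 spleen libraries), over grey bands for the spread of all 20419 genes tested. PDK1 at 0.81 and MPC1 at -0.52 are the genes past the threshold, and the interval of SLC16A3 is the widest, from -0.063 to 1.92.

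Among the kinases, PDK1 (ENSG00000152256, GRCh38 chromosome 2, 172555373 to 172608669) stood at 59.1, 66.7 and 49.2 CPM in brain replicates 1 to 3 and at 34.4 and 32.0 CPM in spleen replicates 1 and 2. Every brain library was well above both spleen libraries, and the spread was wider in brain (58.3 ± 8.76 CPM, SD, n = 3) than in spleen (33.2 ± 1.70 CPM, n = 2). On the log2 scale brain exceeded spleen by 0.81 (SE 0.136, 95% interval 0.50 to 1.12, edgeR adjusted p = 0.00952), and 92.8% of all genes tested had a smaller log2 fold change. PDK1 stayed past the threshold in 13 of 13 alternative settings, with adjusted p between 2.40e-08 and 0.0436.

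PDK3 (ENSG00000067992, chromosome X, 24465244 to 24550466), a kinase known for high activity, was counted far less often. Its gene-table counts were 168, 188 and 172 in brain and 163 and 200 in spleen, or 4.30, 3.80 and 3.82 CPM in brain against 3.71 and 3.97 CPM in spleen. The groups overlapped. The log2 difference of 0.048 had an SE of 0.184 and did not pass (edgeR adjusted p = 0.908), and its sign turned without brain replicate 1 (-0.011) or spleen replicate 1 (-0.0065).

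The deposited transcript tables gave another picture of PDK3. The annotated transcript PDK3-203 alone held 238, 371 and 426 estimated counts in brain and 238 and 164 in spleen. In 4 of the 5 libraries that is more than the whole gene had in the gene table, so the gene table does not hold all of this transcript under PDK3. The other GENCODE 44 transcripts of PDK3 summed to 51.7 to 56.6 estimated counts in brain and to 41.7 and 45.6 in spleen, which left 111 to 136 gene-table counts in brain and 121 and 154 in spleen on none of them. Sums over the transcripts of PDK3, on which its TPM and its shares of TPM below rest, were above the gene table in every library. The shares of gene-table counts below use the lower gene-table counts of PDK3. Whether the remaining gene-table counts were part of PDK3-203 or lay elsewhere was not tested. With counts summed here over the GENCODE 44 transcripts, the log2 fold change of PDK3 was 0.74 (edgeR adjusted p = 0.0912), which does not pass either. PDK3-203 by itself had 1.504, 2.05 and 2.57 TPM in brain against 1.29 and 0.896 TPM in spleen. TPM are transcript abundance scaled to length and to the library total, human and mouse transcripts together. The libraries did not overlap for PDK3-203, and it did not pass the test over all transcripts (edgeR adjusted p = 0.64).

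LDHA (ENSG00000134333, chromosome 11, 18394560 to 18408425) stood at 792, 920 and 933 CPM in brain against 732 and 581 CPM in spleen. All 3 brain libraries were above both spleen libraries, but brain replicate 1 and spleen replicate 1 lay close together. The log2 fold change was 0.43 (SE 0.132, 95% interval 0.13 to 0.73), which did not pass (edgeR adjusted p = 0.0796). It did pass in 3 of 13 alternatives. These were the fit that left out spleen replicate 1 (0.59, with 1 spleen library left), the unfiltered table (edgeR adjusted p = 0.0214) and the DESeq2 Wald test (adjusted p = 0.0335). The unfiltered fit called 4.74% of all genes higher, and DESeq2 8.29%. Without spleen replicate 2 the log2 fold change was 0.27 (adjusted p = 0.283).

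LDHB (ENSG00000111716, chromosome 12, 21635342 to 21757857) stood at 878, 729 and 921 CPM in brain against 1070 and 788 CPM in spleen. The groups overlapped, with spleen replicate 1 highest of all and brain replicate 2 lowest. The log2 fold change was -0.14 (95% interval -0.49 to 0.21, edgeR adjusted p = 0.63), and 0.088 without spleen replicate 1. Processed copies of both LDH genes occur in the human genome, so the sharing of reads among near-identical sequences makes their exact counts uncertain.

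Between the lactate carriers, SLC16A1 (MCT1, ENSG00000155380, chromosome 1, 112911847 to 112957593) carried nearly all the RNA. MCT1 moves lactate and pyruvate with a proton in either direction. It stood at 110, 99.6 and 120 CPM in brain against 137 and 130 CPM in spleen. Every brain library was below both spleen libraries. The mean log2 difference was -0.28 (95% interval -0.52 to -0.042), and the gene did not pass (edgeR adjusted p = 0.135).

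SLC16A3 (MCT4, ENSG00000141526, chromosome 17, 82217934 to 82261129), known as a lactate exporter of glycolytic cells, was counted rarely, with 50, 65 and 41 counts in brain against 13 and 46 in spleen. Spleen replicate 1 alone was low, and spleen replicate 2 lay beside brain replicate 3 at 0.913 and 0.911 CPM. Its log2 difference was 0.93, the SE 0.438, and the gene did not pass (edgeR adjusted p = 0.222). It was 1.97 without spleen replicate 2 (adjusted p = 0.0314) and 0.35 without spleen replicate 1 (adjusted p = 0.647), so a single spleen library set its size.

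For the E1 subunits of pyruvate dehydrogenase, PDHA1 (ENSG00000131828, chromosome X, 19343893 to 19361718), the catalytic alpha subunit that the kinases phosphorylate, stood at 93.8, 94.2 and 107 CPM in brain against 122 and 114 CPM in spleen. The libraries did not overlap, but the log2 difference, -0.26 with a 95% interval of -0.49 to -0.028, did not pass (edgeR adjusted p = 0.151). PDHB (ENSG00000168291, chromosome 3, 58427630 to 58433857), the beta subunit, stood at 46.3, 42.4 and 43.8 CPM in brain against 53.7 and 44.04 CPM in spleen. Its groups overlapped, with spleen replicate 1 alone high, and the log2 fold change was -0.14 (95% interval -0.40 to 0.11, edgeR adjusted p = 0.472).

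MPC1 and MPC2 form the carrier that brings pyruvate across the inner mitochondrial membrane. MPC1 (ENSG00000060762, chromosome 6, 166364919 to 166383013) stood at 18.5, 16.9 and 20.0 CPM in brain against 27.4 and 25.5 CPM in spleen. The 2 groups were well apart, at 18.5 ± 1.56 CPM (SD, n = 3) in brain and 26.5 ± 1.34 CPM (n = 2) in spleen. The log2 fold change was -0.52 (SE 0.113, 95% interval -0.77 to -0.26, edgeR adjusted p = 0.0255). The direction was the same in 13 of 13 alternatives and the call held in 10. Leaving out brain replicate 1 ended it (log2 fold change -0.52, edgeR adjusted p = 0.1003). So did leaving out brain replicate 2 (-0.46, edgeR adjusted p = 0.086) and spleen replicate 1 (-0.47, edgeR adjusted p = 0.095).

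MPC2 (ENSG00000143158, chromosome 1, 167916675 to 167937072) stood at 40.4, 34.8 and 41.9 CPM in brain against 55.3 and 38.1 CPM in spleen. The groups overlapped because spleen replicate 2 lay among the brain libraries. The log2 fold change was -0.26 (95% interval -0.62 to 0.10, edgeR adjusted p = 0.351), and it was 0.024 without spleen replicate 1. Spleen replicate 1 was the highest library for LDHB, PDHB and MPC2 alike, and also for SLC16A1, PDHA1 and MPC1. These are the 6 genes with a log2 fold change below 0.

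Levels of different genes were compared in TPM, which are scaled to transcript length and were summed here over the transcripts of a gene. Mouse transcripts took 10.4%, 4.36% and 3.10% of the TPM total in brain replicates 1 to 3, and 7.98% and 10.5% in spleen. Human TPM compared between libraries therefore vary with that part, and shares of a pair within a library do not. In brain the order was LDHB (930 ± 104 TPM), LDHA (867 ± 98.0), PDHA1 (178 ± 23.9), MPC2 (58.7 ± 7.69), PDHB (39.8 ± 0.626), SLC16A1 (37.8 ± 3.68), MPC1 (26.9 ± 2.46), PDK1 (19.4 ± 3.84), PDK3 (2.97 ± 0.487) and SLC16A3 (0.632 ± 0.0915; SD, n = 3). The ranges of LDHB and LDHA overlapped, as did those of PDHB and SLC16A1. In spleen LDHB averaged 993 and LDHA 594 TPM without overlap, SLC16A1 (44.3) stood beside PDHB (43.2) with overlap, and the other ranks were the same. The E1 alpha subunit was thus listed well above E1 beta in every library, but 69.9% to 73.9% of PDHA1 TPM in brain and 71.7% and 73.2% in spleen lay on transcripts annotated as retaining an intron, and 15.0% to 20.5% in brain and 15.4% and 16.8% in spleen on protein-coding transcripts. For LDHA protein-coding transcripts held 96.3% to 97.5% of TPM in brain and 97.3% and 97.6% in spleen.

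LDHA made up 45.5%, 53.1% and 46.2% of summed LDHA and LDHB TPM in brain replicates 1 to 3, against 35.8% and 39.3% in spleen. All brain libraries were higher, by 10.7 percentage points in the mean, and brain replicate 2 was the library in which LDHA exceeded LDHB. The exact two-sided permutation p was 0.1, the smallest that 3 against 2 libraries allow, and 0.5 after adjustment over the 5 pairs compared. The sum of the LDH genes overlapped between sites, at 1667, 1786 and 1939 TPM in brain and 1681 and 1494 TPM in spleen. These TPM were not rescaled to human transcripts alone, so the overlap may depend on the mouse part.

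SLC16A3 held 1.89%, 1.86% and 1.24% of SLC16A3 and SLC16A1 TPM in brain against 0.298% and 1.42% in spleen (exact permutation p = 0.3). The carriers SLC16A7 and SLC16A8 are outside this share. SLC16A7 had 1.82, 1.56 and 1.17 TPM in brain and 0.862 and 1.62 TPM in spleen. SLC16A8 had 0.938, 0.884 and 0.366 TPM in brain and 0.766 and 1.95 TPM in spleen. PDK1 held 87.5%, 89.2% and 82.6% of PDK1 and PDK3 TPM in brain against 82.9% and 84.9% in spleen (exact permutation p = 0.5). MPC1 held 32.0%, 31.9% and 30.5% of carrier TPM in brain against 31.9% and 39.4% in spleen (exact permutation p = 0.2), and PDHA1 held 79.4%, 82.2% and 83.2% of E1 TPM in brain against 82.1% and 84.5% in spleen (exact permutation p = 0.5). These 4 shares overlapped between sites in TPM. In gene-table counts, which are not scaled to length, 3 of them did not overlap. There PDK1 held 93.2%, 94.6% and 92.8% in brain against 90.3% and 89.0% in spleen (exact permutation p = 0.1), and MPC1 held 31.4%, 32.8% and 32.3% in brain against 33.1% and 40.1% in spleen (exact permutation p = 0.1). SLC16A3 held 1.15%, 1.30% and 0.757% of SLC16A3 and SLC16A1 counts in brain against 0.215% and 0.699% in spleen (exact permutation p = 0.2). The LDHA share was 47.4%, 55.8% and 50.3% of counts in brain against 40.6% and 42.4% in spleen, again without overlap. Set against the E1 beta subunit, PDK1 TPM came to 45.0%, 60.4% and 41.0% of PDHB TPM in brain and to 20.8% and 22.2% in spleen, with no overlap. Against PDHA1 they came to 11.7%, 13.1% and 8.30% in brain and to 4.53% and 4.07% in spleen, also without overlap. These ratios were not among the 5 pairs planned, they largely repeat the difference of PDK1, and they were not tested.

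**Figure D3:**
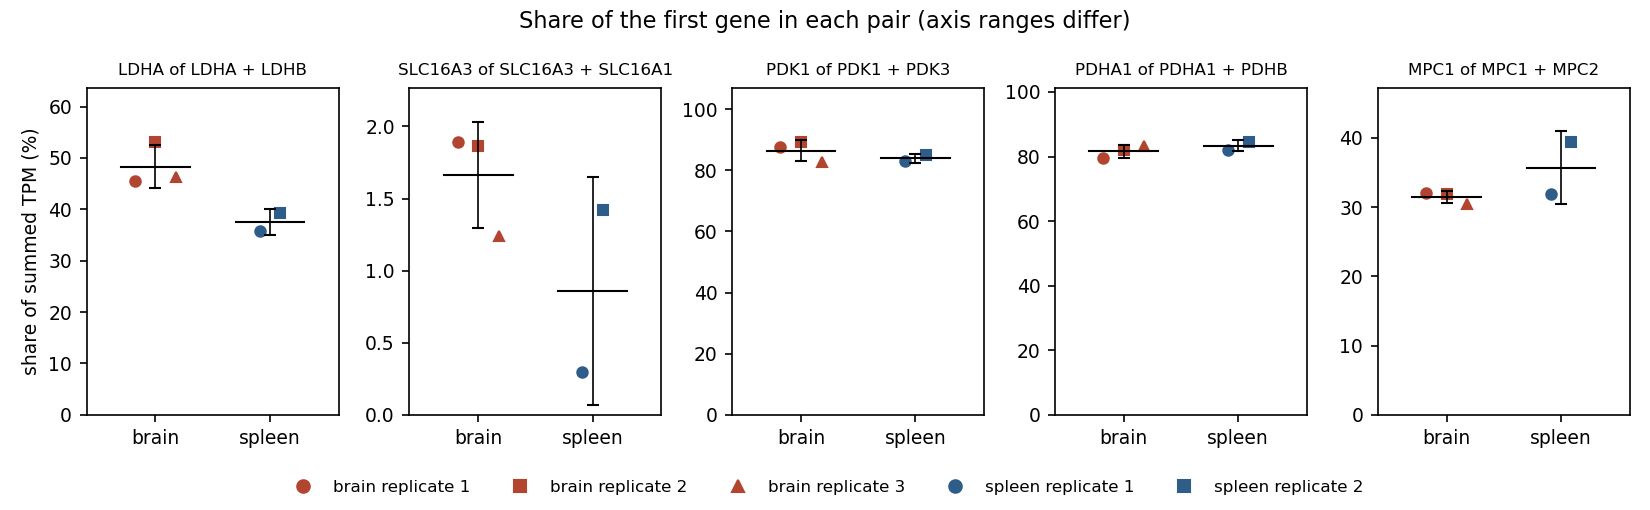
Share of the first gene in the summed TPM of each pair (y axis, percent, from 0, ranges differ) in the 3 brain (red, left) and 2 spleen (blue, right) libraries, with mean and SD. The LDHA share, 45.5% to 53.1% in brain against 35.8% and 39.3% in spleen, is the pair whose groups do not overlap in TPM. In gene-table counts the PDK1, MPC1 and SLC16A3 shares do not overlap either, but there the PDK1 share leaves part of PDK3 out.

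At the level of annotated transcripts, LDHA came mainly from 3 protein-coding forms. LDHA-206 had 258, 331 and 324 TPM in brain against 229 and 220 TPM in spleen, and LDHA-203 had 291, 380 and 411 TPM in brain against 281 and 244 TPM in spleen. LDHA-220 had 170, 183 and 126 TPM in brain against 55.4 and 98.5 TPM in spleen (log2 fold change 1.06, SE 0.254). All brain libraries were above both spleen libraries for each of the 3. Forms of a gene share reads, so these are not separate results. Among genes 23.3% had this pattern, and the share among all transcripts was not counted. LDHA-206 and LDHA-220 start at the promoter shown above, and all transcripts that begin within 100 bases of that start summed to 462, 562 and 481 TPM in brain against 319 and 338 TPM in spleen. LDHA-203 begins within 100 bases of the second start, whose window holds no ACGTG.

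PDK1 RNA lay mainly on PDK1-203, with 10.53, 12.7 and 9.93 TPM in brain against 6.33 and 6.32 TPM in spleen (log2 fold change 0.75, SE 0.172). PDK1-201 had 2.55, 3.26 and 2.31 TPM in brain against 1.40 and 1.66 TPM in spleen, and PDK1-208, from a start further upstream, 1.15, 2.52 and 1.97 TPM in brain against 0.528 and 0.174 TPM in spleen. Every brain library was above every spleen library for these transcripts and for PDK1-202 (log2 fold change 1.17). As for LDHA, the share of all transcripts with this pattern was not counted. MPC1-201, the main transcript of MPC1, had 22.2, 21.6 and 26.2 TPM in brain against 33.3 and 34.0 TPM in spleen (log2 fold change -0.56, SE 0.186).

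For the other genes the tested forms that held at least 10% of a gene's TPM in any library had log2 fold changes of -0.14 (LDHB-201), -0.29 (SLC16A1-201), -0.29 (MPC2-201), -0.20 (MPC2-202), -0.20 (PDHB-201), -0.35 (PDHA1-209), -0.32 (PDHA1-202), -0.43 (PDHA1-203), 0.96 (SLC16A3-210), 0.94 (SLC16A3-213), 0.82 (PDK3-203) and 0.40 (PDK3-201). Another 5 forms of SLC16A3 held at least 10% in some library but were too rare to test, namely SLC16A3-202, SLC16A3-204, SLC16A3-207, SLC16A3-211 and SLC16A3-214, each at most 0.257 TPM. Of 62 transcripts of the 10 genes that were tested, 0 passed by edgeR's quasi-likelihood test, and 8 higher and 1 lower had an unadjusted p under 0.05 (4.86% and 3.21% of all human transcripts). Over all 75118 human transcripts tested 0 passed as well (0% in each direction, lowest adjusted p = 0.119, with 6064 at an unadjusted p under 0.05). The uncertainty of sharing reads among transcripts is not part of that test.

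**Figure D4:**
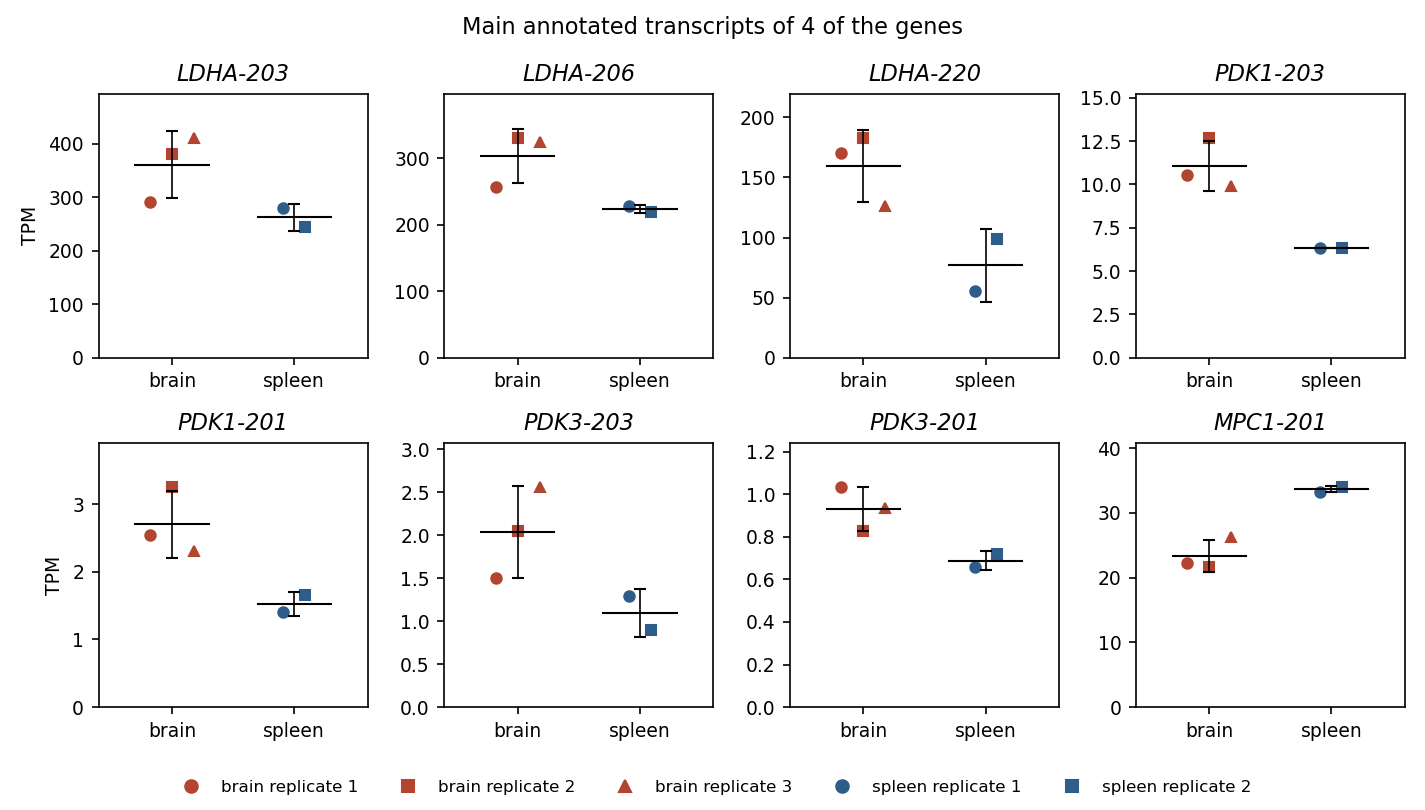
TPM (y axis, from 0, ranges differ) of the main annotated transcripts of LDHA, PDK1, PDK3 and MPC1 in the 3 brain (red, left) and 2 spleen (blue, right) libraries, with mean and SD. Brain libraries are higher for the LDHA, PDK1 and PDK3 forms and lower for MPC1-201, and none of these passed the test over all transcripts.

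A list of 22 other genes of pyruvate and lactate handling was read from the same fit. Of its 18 tested members 0 were higher and 0 lower by edgeR, with 1 higher and 2 lower at an unadjusted p under 0.05 (14.2% and 11.3% of all genes tested), and the median log2 fold change was 0.027. By the DESeq2 Wald test, which called 6.94% of all genes lower, 1 was lower. This was BSG, the chaperone that brings MCT1 and MCT4 to the membrane, which had the highest summed TPM of the list, at 199, 221 and 223 TPM in brain and 251 and 246 TPM in spleen. BSG stood at 250.7, 263 and 259 CPM in brain against 339 and 291 CPM in spleen, and its log2 difference was -0.29 (edgeR adjusted p = 0.119; DESeq2 adjusted p = 0.0472). Of the other kinases, PDK2 stood at 27.4, 28.7 and 29.6 CPM in brain against 27.8 and 26.2 CPM in spleen with overlap. PDK2 had 18.4, 22.6 and 25.4 TPM in brain and 16.2 and 20.2 TPM in spleen. PDK1 had 17.8, 23.8 and 16.6 TPM in brain and 9.43 and 9.09 TPM in spleen. Per length PDK2 was thus near PDK1 in brain and above it in spleen, and the PDK1 share of PDK1 and PDK3 leaves PDK2 out. PDK4 had 0 counts in all 5 libraries, which allows up to 3 counts in each.

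**Figure D5:**
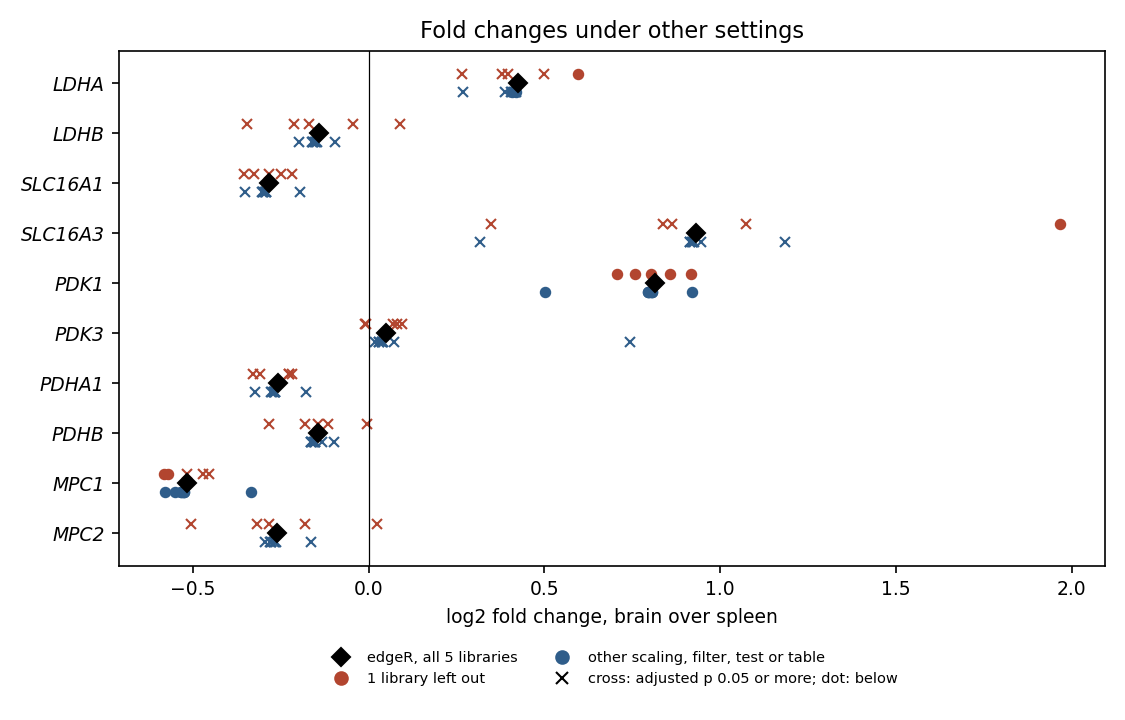
Log2 fold change, brain over spleen, of each gene with all libraries (black diamonds), with 1 library left out (red) and under another scaling, filter, test or input table (blue), where dots have an adjusted p under 0.05 and crosses do not. PDK1 keeps its call throughout, MPC1 loses it in 3 settings, and SLC16A3 spreads from 0.32 to 1.97.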

How the data were processed

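Leukaemia cells were sequenced from a stranded poly(A) library kit, per the labels' protocols. Tools listed in the submitters' processing notes are kallisto 0.42.4, cutadapt 1.5, bcl2fastq 1.8.4 and DESeq2, on GRCh38 and GRCm38. Neither their order nor a strand setting is given in the sources used here. The authors deposited, per the file headers, kallisto estimated counts and TPM per human and mouse transcript. The deposited gene table holds estimated counts as whole numbers. The authors' deposited rlog values (log2) served as an alternative. A further column of each gene table (1) matches no sample and was not used.

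Gene identifiers were named from GENCODE 44, with 86.4% matched, holding 99.8% of counts. Counts were tested with edgeR 4.0.16 (R 4.3.3), with the organ of origin as its single term, following filterByExpr and TMM scaling, with Benjamini-Hochberg adjustment and a threshold of 0.05. Standard errors and intervals are on the log2 scale. Rounded transcript estimates were tested likewise over all human transcripts. CPM use TMM-scaled totals, and TPM were summed over GENCODE transcripts. limma 3.58.1 and DESeq2 1.42.0 were alternatives.

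Members and lists were chosen with earlier results of these data known. All 10 members are named, with the list's genes past the threshold or its most abundant one, and tested transcripts holding 10% of their gene's TPM in any library. PDK2, PDK4, PC, PDP2, PDK1-209 and untested SLC16A3 forms were named outside this rule, after values were seen. The labels' protocols use the numbers for independent occasions, so equal numbers were taken as pairs; nothing else in the files ties a spleen library to a brain library. Deviations from the group means correlated at -0.025 and 0.15 across genes in pairs 1 and 2, and at 0.15 for brain replicate 3 with spleen replicate 1, which share no number. The 2 spleen libraries deviate from their mean by equal and opposite amounts. Brain 1 with spleen 2 and brain 2 with spleen 1 are therefore fixed at 0.025 and -0.15. These values cannot decide whether equal numbers are pairs.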

Additional observations from a re-analysis of the deposited data

How the results depend on the processing

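Over all genes, leaving out 1 library gave 515 to 871 higher and 146 to 828 lower genes, against 1228 and 714 with all libraries, and 1 to 2 of the 10 genes higher and 0 to 1 lower. Without filtering 1830 genes were higher (4.74% of 38611 tested) and 1337 lower. By the DESeq2 Wald test these were 1525 (8.29% of 18398 tested) and 1276 (6.94%). In each of these fits 2 of the 10 genes were higher. DESeq2 called 1 other pathway gene lower. The replicate block left the calls as they were, with PDK1 at 0.92, MPC1 at -0.58 and LDHA at 0.39. Brain replicate 3 has no spleen library of its number, so in that fit it adds nothing to the site difference. The fit has 1 residual degree of freedom and lies close to that without brain replicate 3 (0.92, -0.58 and 0.38). The alternatives are therefore not separate checks. Directions turned without brain replicate 1 for PDK3 and without spleen replicate 1 for LDHB, PDK3 (-0.0065), MPC2 and 4 transcripts. With 1 library left out, log2 fold changes ranged from -0.35 to 0.088 for LDHB, -0.011 to 0.094 for PDK3, -0.51 to 0.024 for MPC2, -0.58 to 0.057 for MPC2-201, -0.48 to 0.13 for MPC2-202, -0.38 to 0.14 for LDHB-201 and -0.020 to 6.35 for SLC16A3-213. None of these had passed, and the cause was not tested. With 3 brain and 2 spleen libraries, a missed threshold does not show equal levels. SLC16A3 is limited by its 13 to 65 counts.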

Other observations

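The retained-intron transcript PDK1-209 had 0.745, 1.71 and 0.815 TPM in brain and was listed at 0 in both spleen libraries, and it did not pass the test over all transcripts (edgeR adjusted p = 0.348). Among pyruvate genes outside the 10, PC, the carboxylase that makes oxaloacetate from pyruvate, stood at 5.69, 6.26 and 4.87 CPM in brain against 7.75 and 7.52 CPM in spleen (log2 fold change -0.44, edgeR adjusted p = 0.14). PDP2, a phosphatase that reactivates pyruvate dehydrogenase, stood at 43.2, 44.9 and 48.7 CPM in brain against 37.9 and 38.2 CPM in spleen (log2 fold change 0.26, edgeR adjusted p = 0.138). Neither gene passed. Their libraries did not overlap between sites, and those of PDP1, DLD and BSG on the same list did not either. Over all genes tested, 23.3% had every brain library above and 19.5% every brain library below, so this pattern is common. PDK1-209, PC and PDP2 were picked after their values were seen.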
